A study of Mus musculus with 4 samples.

Results

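The blood of C57BL/6 mice given naringenin (Nar) was followed here for 10 transcription factor genes of the red cell and platelet lineages, Gata1, Klf1, Tal1, Nfe2, Zfpm1, Lmo2, Ldb1, Gfi1b, Klf3 and Foxo3. They were taken by gene symbol, and all 10 of them, out of 23136 genes listed, had a value in each library. The mice are labelled as adult, with no genetic change named, and the study describes them as aging. One group received Nar, a plant flavonoid, by injection into the tail vein for 30 days, and the control group (Ctrl) received phosphate-buffered saline (PBS) for 30 days. There were 2 blood libraries per group, Ctrl 1, Ctrl 3, Nar 1 and Nar 3, made from RNA selected with oligo(dT) beads, and the labels do not say whether each came from 1 mouse. Whole blood mixes red cells, platelets and leukocytes, so fewer cells of a type and less RNA per cell cannot be told apart.

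In the bone marrow, a precursor shared by red cells and megakaryocytes is steered by a small set of nuclear proteins, in which GATA1 binds DNA at GATA motifs together with its cofactor FOG1, the product of Zfpm1, and is joined through LMO2 and LDB1 to TAL1, which binds E-boxes. KLF1 drives adult beta-globin and other red cell genes, NFE2 is required for platelet release, and GFI1B is a repressor needed in both lineages. Circulating red cells and platelets of mammals have no nucleus, and the transcripts that young ones carry were made in their precursors.

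Because GATA1 and its partners are known to act on genes of this set, the 250 bases before the start sites were searched for GATA motifs (the letters GATA after A or T and before A or G, on either strand). RefSeq start sites on build GRCm38.p6 were matched for 8 of the 10 genes, in 11 windows, and for Nfe2 and Lmo2 none was matched. A GATA motif stood in 4 of the 11 windows, 1 each of Klf1, Tal1, Ldb1 and Gfi1b, and in 26.5% of all 32851 windows of this length. The windows of Gata1 and Gfi1b are shown because their patterns over the libraries were the closest among the tested factors, though their levels differed. That of Tal1, the first of its 2 start sites, is shown because it holds a motif. Tal1 also peaked in Ctrl 3, as 7 of the 9 tested factors did. The window of Klf1 is shown because the gene was almost undetected. Each runs in the direction of transcription, with any GATA motif in capitals, and stops where an annotated exon begins.
Gata1, chrX:7967911-7968160, minus strand: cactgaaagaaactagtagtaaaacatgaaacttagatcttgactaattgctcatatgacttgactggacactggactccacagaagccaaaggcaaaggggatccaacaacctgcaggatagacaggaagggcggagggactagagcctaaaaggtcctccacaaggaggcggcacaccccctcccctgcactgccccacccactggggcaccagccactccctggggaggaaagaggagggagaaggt
Gfi1b, chr2:28621983-28622232, minus strand: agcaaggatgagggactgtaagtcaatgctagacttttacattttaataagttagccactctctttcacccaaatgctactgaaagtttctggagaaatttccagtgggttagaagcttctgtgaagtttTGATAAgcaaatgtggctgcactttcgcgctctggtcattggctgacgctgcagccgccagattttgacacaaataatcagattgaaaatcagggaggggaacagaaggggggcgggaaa
Tal1, chr4:115056176-115056425, plus strand: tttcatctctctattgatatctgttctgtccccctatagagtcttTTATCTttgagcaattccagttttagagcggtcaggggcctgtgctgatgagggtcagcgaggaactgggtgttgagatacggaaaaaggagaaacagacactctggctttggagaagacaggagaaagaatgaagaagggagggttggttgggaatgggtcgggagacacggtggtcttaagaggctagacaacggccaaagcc
Klf1, chr8:84901732-84901927, plus strand: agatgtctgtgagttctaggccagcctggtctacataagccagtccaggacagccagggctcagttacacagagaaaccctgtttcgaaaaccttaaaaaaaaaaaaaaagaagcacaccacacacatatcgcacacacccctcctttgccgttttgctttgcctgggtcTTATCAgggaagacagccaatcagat
Counted from the start site, the motif began at base -120 in Gfi1b, at -205 in Tal1 and at -80 in Klf1, and the window of Gata1 held none. The window of the second Tal1 start site, not printed, held none either. The bases after the first Tal1 start site, and after the Ldb1 start site with a motif, were not found in a GENCODE transcript of the gene, while those after the second Tal1 start site were. On either strand, the KLF motif CCNCNCCC was found in 9 of the 11 windows (45.9% of all windows), the E-box CAGNTG in 2 of the 11 (44.8% of all windows) and TGANTCAGC, a form of the NF-E2 motif, in 0 of the 11 (1.02% of all windows). A match describes these letters and is no evidence of binding.

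Values were FPKM (fragments per kilobase of transcript, scaled to the mapped fragments of a library), a unit already divided by transcript length, and haemoglobin genes took 92.6 to 96.4% of their sum. Differences are Nar minus Ctrl on log2(FPKM + 0.1), which understates changes of low genes, and were tested with limma over the 5339 genes with a mean of at least 0.5 FPKM. From the steps between low values, 1 fragment was estimated to be worth 0.0414 to 0.0432 FPKM in a transcript of 1 kilobase. The steps were only moderately sharp, so depth is not known beyond this estimate. Over all tested genes the log2 fold change had a median of -1.07. Marker genes moved with group and library. The summed FPKM of 10 neutrophil genes was 1638 and 1361 in Ctrl against 99.6 and 157 in Nar, and that of 18 platelet genes was 3083 in Ctrl 3 against 626 to 964 in the other 3 libraries. The sum of the 18 red cell genes with values was 9025 and 11047 in Ctrl and 11081 and 10195 in Nar.

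Blood held transcripts of all 10 factors, over a wide range of levels. In controls the mean was 38.9 FPKM for Nfe2, 13.2 for Lmo2, 8.39 for Gata1, 5.67 for Klf3, 4.12 for Tal1, 3.47 for Ldb1, 2.71 for Foxo3, 2.63 for Zfpm1, 2.04 for Gfi1b and 0.10 for Klf1. Neighbours in this order overlapped between their 2 control libraries, except Nfe2 with Lmo2, Ldb1 with Foxo3 and Gfi1b with Klf1. In the Nar libraries Lmo2 had the highest mean (23.7 FPKM) and Nfe2 the next (15.6 FPKM), with overlapping libraries.

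**Figure D1:**
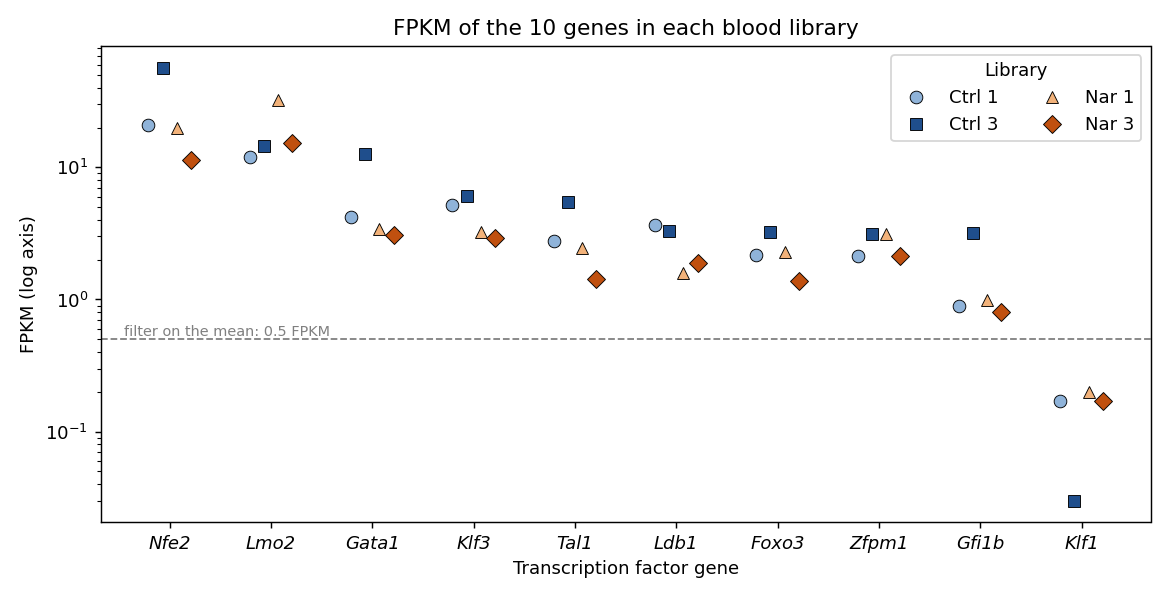
FPKM (log axis) of the 10 transcription factor genes, with 1 point for each of the 4 libraries. Ctrl 3 is the highest library for 7 of the 9 tested genes, and Klf1 lies between 0.03 and 0.20 FPKM.

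None of the 9 tested factors passed at a limma adjusted p under 0.05, with 0 lower and 0 higher, while 39.6% of all tested genes passed as lower with Nar and 0.187% as higher. At an unadjusted limma p under 0.05 there was 1, Ldb1, against 56.9% of all tested genes. Both Nar libraries lay below both Ctrl libraries for 5 of the 9 (Gata1, Tal1, Nfe2, Ldb1 and Klf3), against 78.3% of all tested genes, and above both for 1 (Lmo2), against 1.27%. The median log2 fold change of the 9 factors was -0.86. With median-of-ratios scaling, under which the typical gene is level across libraries, 0 of the 9 passed, beside 0.599% of all tested genes called lower and 0.187% called higher, and 2 of the 9 had an unadjusted limma p under 0.05, beside 14.9% of all tested genes. The median of the 9 was then 0.22, so the direction of most of these factors depended on the scaling.

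**Figure D2:**
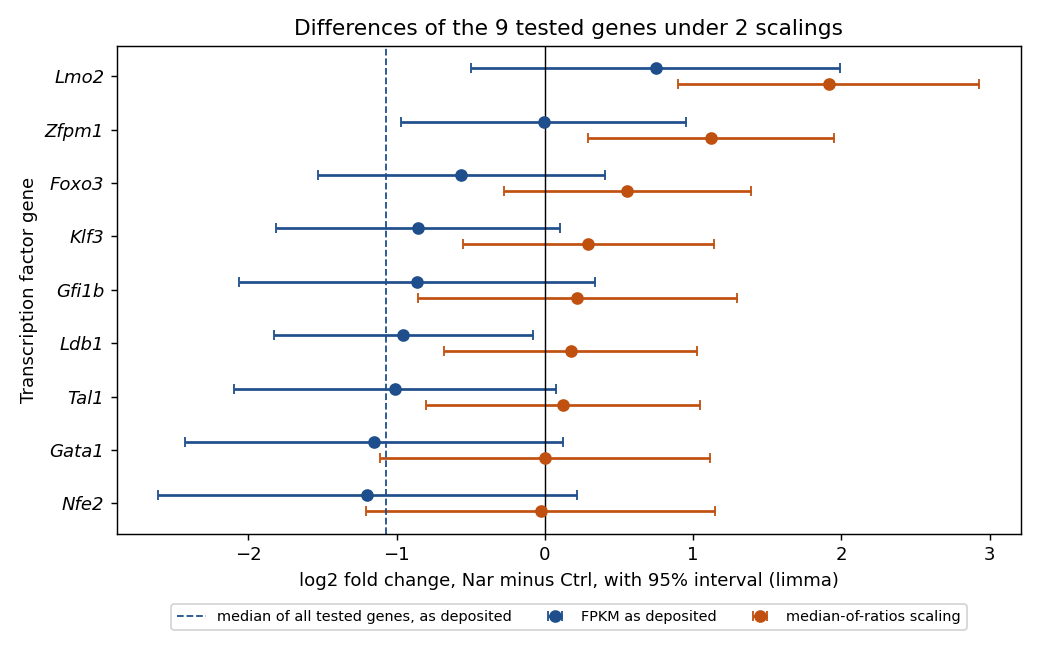
Log2 fold change (Nar minus Ctrl) of the 9 tested genes with its 95% interval from limma, on deposited FPKM and after median-of-ratios scaling, with a dashed line at the median over all tested genes. On deposited FPKM the points run from -1.20 for Nfe2 to 0.75 for Lmo2, and after scaling the intervals of Zfpm1 and Lmo2 lie above 0.

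Gata1 (NCBI Gene 14460, chromosome X, 7959260 to 7978071) encodes the zinc finger factor required in both lineages (coordinates of genes are on GRCm38). It had 4.23 (Ctrl 1), 12.6 (Ctrl 3), 3.42 (Nar 1) and 3.06 FPKM (Nar 3). Ctrl 3 stood apart at 2.97 times Ctrl 1, and both Nar libraries lay below both controls. The log2 fold change was -1.15 (SE 0.56, limma adjusted p = 0.112), and it was -0.38 without Ctrl 3, -1.92 without Ctrl 1 and 0.00 after median-of-ratios scaling.

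Zfpm1 (NCBI Gene 22761, chromosome 8, 122282141 to 122337251), whose product FOG1 is the partner of GATA1, had 2.13 (Ctrl 1), 3.14 (Ctrl 3), 3.12 (Nar 1) and 2.12 FPKM (Nar 3). One library of each group was high and one low, so the groups overlapped. Its log2 fold change was -0.01 (SE 0.42, limma adjusted p = 0.988), with a 95% interval from -0.97 to 0.95. Under median-of-ratios scaling the value became 1.12, with a 95% interval from 0.29 to 1.95 and a limma adjusted p of 0.165.

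Tal1 (NCBI Gene 21349, chromosome 4, 115056426 to 115071755), the E-box binding member of the complex, had 2.79 (Ctrl 1), 5.44 (Ctrl 3), 2.47 (Nar 1) and 1.44 FPKM (Nar 3). Ctrl 3 was again the highest library and Nar 3 the lowest, and the groups did not overlap. The log2 fold change was -1.01 (SE 0.48, limma adjusted p = 0.105), and it was -0.54 without Ctrl 3, -0.64 without Nar 3, -1.48 without Ctrl 1 and 0.12 after median-of-ratios scaling.

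Ldb1 (NCBI Gene 16825, chromosome 19, 46031570 to 46045214) encodes the adaptor that dimerises and so brings such complexes together. It had 3.64 (Ctrl 1), 3.30 (Ctrl 3), 1.60 (Nar 1) and 1.89 FPKM (Nar 3). Libraries of a group were close to each other and the groups were apart, without a peak in Ctrl 3. On the log2 scale the change was -0.96 (SE 0.39, limma adjusted p = 0.0708), -1.02 without Ctrl 3 and 0.17 after median-of-ratios scaling. Exons of Ldb1 share 177 bases with Pprc1 on the opposite strand, and the protocol is not stated to keep strand, so reads from that stretch cannot be assigned to one of the 2 genes.

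Lmo2 (NCBI Gene 16909, chromosome 2, 103957986 to 103981878), the bridge between TAL1 and GATA1, had 12.0 (Ctrl 1), 14.4 (Ctrl 3), 32.1 (Nar 1) and 15.2 FPKM (Nar 3). It was the 1 tested factor with both Nar libraries above both controls, with Nar 1 far above the other 3 libraries and Nar 3 close to Ctrl 3. Its log2 fold change was 0.75 (SE 0.55, limma adjusted p = 0.254), and it was 0.21 without Nar 1, 1.29 without Nar 3 and 1.31 with haemoglobin genes removed. Under median-of-ratios scaling the value became 1.91, with a 95% interval from 0.90 to 2.93 and a limma adjusted p of 0.0864.

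Gfi1b (NCBI Gene 14582, chromosome 2, 28609450 to 28621982), the lineage repressor, had 0.89 (Ctrl 1), 3.18 (Ctrl 3), 0.99 (Nar 1) and 0.80 FPKM (Nar 3). Ctrl 3 was 3.57 times Ctrl 1, the largest ratio between the controls among the 9 tested factors, and Ctrl 1 lay between the Nar libraries. This gave a log2 fold change of -0.86 (SE 0.53, limma adjusted p = 0.184), which was 0.00 without Ctrl 3, -1.73 without Ctrl 1 and 0.22 after median-of-ratios scaling.

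Nfe2 (NCBI Gene 18022, chromosome 15, 103248212 to 103258403), the factor of platelet release, had 20.9 (Ctrl 1), 57.0 (Ctrl 3), 19.8 (Nar 1) and 11.3 FPKM (Nar 3). Ctrl 3 was 2.73 times Ctrl 1, while Ctrl 1 and Nar 1 were nearly level. This gave a log2 fold change of -1.20 (SE 0.62, limma adjusted p = 0.129), -0.47 without Ctrl 3, -1.92 without Ctrl 1, -0.80 without Nar 3 and -0.03 after median-of-ratios scaling.

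Klf1 (NCBI Gene 16596, chromosome 8, 84901928 to 84905291), the activator of adult beta-globin, had only 0.17 (Ctrl 1), 0.03 (Ctrl 3), 0.20 (Nar 1) and 0.17 FPKM (Nar 3). By the estimated worth of a fragment, which is itself uncertain, these values stand for about 6.0, 1.0, 7.1 and 6.1 fragments, too few to show a difference. Its mean was below the filter, and the exact permutation test of 2 libraries against 2 gave a two-sided p of 0.667, where the smallest possible is 0.333. Its level was low in the same libraries in which Alas2, the first enzyme of heme synthesis in red cells, had 6055 to 6991 FPKM.

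Klf3 (NCBI Gene 16599, chromosome 5, 64803388 to 64832901), a repressor of the same family, had 5.22 (Ctrl 1), 6.11 (Ctrl 3), 3.23 (Nar 1) and 2.94 FPKM (Nar 3). The groups did not overlap and differed by more than the spread within either. On the log2 scale the change was -0.85 (SE 0.42, limma adjusted p = 0.115), -0.74 without Ctrl 3 and 0.29 after median-of-ratios scaling. Klf3 shares 404 exonic bases with Gm20033 on the opposite strand, from which its reads cannot be told apart there.

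Foxo3 (NCBI Gene 56484, chromosome 10, 42181841 to 42276755), which acts in late red cell maturation and on antioxidant genes, had 2.16 (Ctrl 1), 3.27 (Ctrl 3), 2.27 (Nar 1) and 1.37 FPKM (Nar 3). The groups overlapped, with Ctrl 3 highest and Nar 3 lowest. Its log2 fold change was -0.56 (SE 0.43, limma adjusted p = 0.268), with a 95% interval from -1.53 to 0.40. It was -0.28 without Ctrl 3, -0.22 without Nar 3, -0.85 without Ctrl 1, -0.91 without Nar 1 and 0.56 after median-of-ratios scaling.

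Gata1, Nfe2, Gfi1b and Tal1, grouped after their values were seen, peaked in Ctrl 3, as did 17 of the 18 platelet genes and 52.7% of all tested genes. To compare within a library, free of scaling between libraries, each gene was centred on its own mean over the libraries on the log2 scale, and the median of the centred marker genes was subtracted from each factor. This comparison was added after the values were seen. Against the platelet genes, Nfe2 then stood at 0.06 (Ctrl 1), 0.12 (Ctrl 3), -0.17 (Nar 1) and -0.11 (Nar 3). Its highest and lowest library differed by 0.29 log2 units, and those of Tal1 by 0.44, Gfi1b by 0.58, Gata1 by 0.71, Foxo3 by 0.89, Klf3 by 1.16, Ldb1 by 1.52, Zfpm1 by 1.55 and Lmo2 by 2.38. Against the red cell genes this range was 2.05 for Nfe2, 1.58 for Tal1, 1.69 for Gfi1b, 1.95 for Gata1, 1.26 for Foxo3, 1.68 for Klf3, 2.15 for Ldb1, 0.64 for Zfpm1 and 1.05 for Lmo2. The range was narrower against platelet than against red cell genes for 7 of the 9 tested factors, but also for 83% of all tested genes, so this count is no result about the factors. Among all 6 marker lists, red cell, platelet, neutrophil, monocyte, B cell and T and NK cell genes, the range was narrowest against platelet genes for 5 factors (Gata1, Tal1, Nfe2, Gfi1b and Foxo3), beside 26.9% of all tested genes, and against red cell genes for 2 (Zfpm1 and Lmo2), beside 7.21%. It was narrowest against B cell genes for Ldb1 (0.74), beside 21.4% of all tested genes. For Klf3 it was narrowest against T and NK cell genes (0.76), beside 28.2% of all tested genes. These counts come from few genes and libraries and were not tested. Without centring, the median level of the red cell list was that of the single gene Tspan33 in all 4 libraries. The ranges of the 9 tested factors against it, from 1.60 for Zfpm1 to 2.50 for Ldb1, describe distance from that gene. The part of platelet RNA in the values of these factors was not tested.

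**Figure D3:**
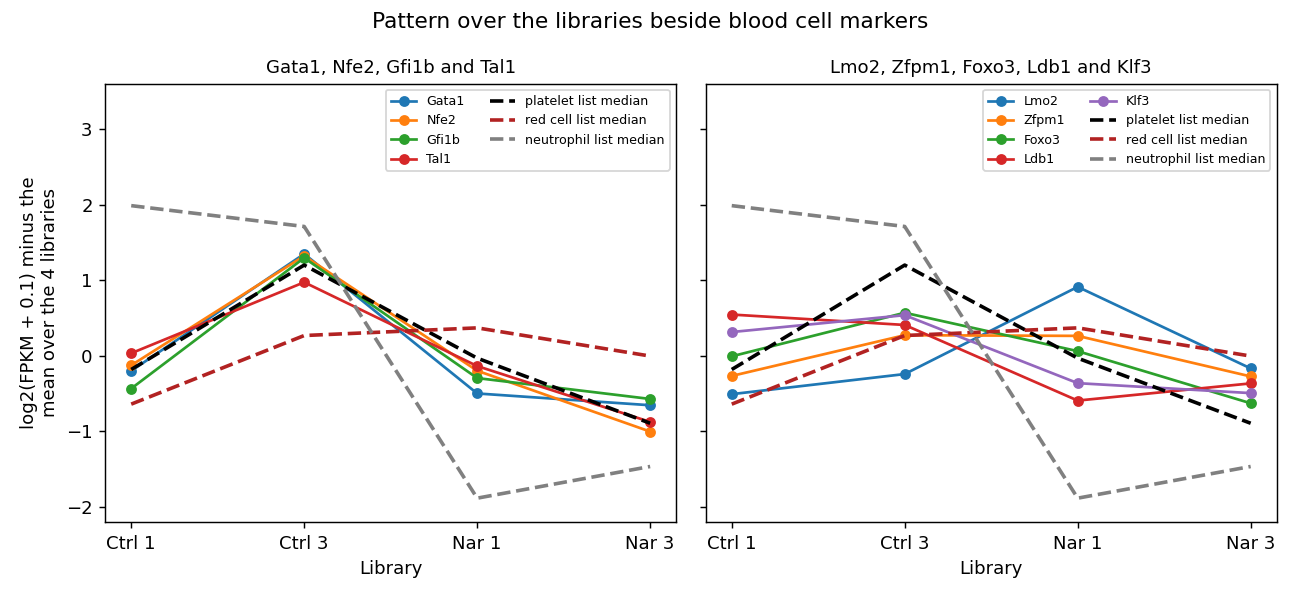
Log2(FPKM + 0.1) in each of the 4 libraries minus the mean over them, for the 9 tested factors and for the medians of marker gene lists. In Ctrl 3, Gata1 reaches 1.35, Nfe2 1.32, Gfi1b 1.30, Tal1 0.97 and the platelet median 1.20, while Lmo2 is highest in Nar 1 at 0.91.

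Genes with the most similar pattern were sought among 5330 tested genes by the Euclidean distance between such centred profiles over the 4 libraries. The nearest to Gata1 were Sec11c (distance 0.0657), Pttg1ip (0.110) and Gucd1 (0.136), and the nearest to Nfe2 were Tgfb1i1 (0.0853), F2rl2 (0.0903) and Calu (0.0954). With so few libraries many genes come close, and 376 lay within 0.5 of Gata1 and 417 within 0.5 of Nfe2. Among the factors the closest pairs were Gata1 with Gfi1b (0.325), Ldb1 with Klf3 (0.374) and Tal1 with Nfe2 (0.408), and the farthest pair was Gata1 with Lmo2 (2.20).

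Of 25 genes for partners and cofactors of these factors, 18 were tested, and 7 fell with Nar at a limma adjusted p under 0.05 and 0 rose, with a median log2 fold change of -0.89. This share was close to the 39.6% of all tested genes that were called lower, so it is no result about the partners. Bach1, which competes with NFE2 for small MAF partners, had 1.74 and 2.02 FPKM in the Ctrl libraries and 0.54 and 0.25 in the Nar libraries. Its log2 fold change was -2.06 (SE 0.40, limma adjusted p = 0.0108). Lmo4, a LIM-only gene related to Lmo2, had 3.28 and 1.99 FPKM in the Ctrl libraries and 0.63 and 0.76 in the Nar libraries, with a log2 fold change of -1.75 (limma adjusted p = 0.016). The groups did not overlap for either gene, and the other 5 that fell, listed after their values were seen, were the small MAF gene Mafk, the coactivator Ep300 and the repressor complex genes Hdac1, Mta2 and Gatad2a. Ssbp3, whose product stabilises LDB1, had 4.27 and 6.15 FPKM in the Ctrl libraries and 5.56 and 4.70 in the Nar libraries, with a log2 fold change of -0.00, and Cbfa2t3, a corepressor of TAL1 complexes, had one of -0.51. Both Ssbp3 and Cbfa2t3 overlapped between groups. After median-of-ratios scaling 0 of the 18 passed, with 2 at an unadjusted limma p under 0.05, beside 14.9% of all tested genes. The median of the partners was then 0.18, and without Ctrl 3 it was -1.01 on deposited FPKM.

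Of 25 other blood transcription factors, 20 were tested, and 10 fell and 0 rose, beside 39.6% of all tested genes called lower, with a median log2 fold change of -1.11. Spi1, which encodes the myeloid factor PU.1, an antagonist of GATA1, had 18.9 and 16.2 FPKM in the Ctrl libraries and 2.28 and 2.63 in the Nar libraries. The groups were far apart, with a log2 fold change of -2.79 (SE 0.45, limma adjusted p = 0.00609). The neutrophil genes given above were lower in the same 2 libraries, and their part in this difference was not tested. Klf13, another family member of Klf1, had a log2 fold change of -1.85 (limma adjusted p = 0.012). E2f2, a cell cycle factor of late red cell precursors, had 18.2 and 47.0 FPKM in the Ctrl libraries and 27.7 and 32.1 in the Nar libraries, with overlapping groups, and Bcl11a, a repressor of fetal globin genes, had a log2 fold change of 0.28. Gata2, the factor that GATA1 replaces as cells mature, is named here after its values were seen, with 1.94 and 4.03 FPKM in the Ctrl libraries and 1.42 and 0.95 in the Nar libraries and a log2 fold change of -1.20 (limma adjusted p = 0.0579). After median-of-ratios scaling 0 of the 20 passed in limma, with 3 at an unadjusted p under 0.05, beside 14.9% of all tested genes. The median was then -0.06, and without Ctrl 3 it was -1.20 on deposited FPKM.

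Of 19 red cell genes, several of them known targets of these factors, 17 were tested, 0 passed in limma in either direction (39.6% of all tested genes as lower and 0.187% as higher) and 0 had an unadjusted p under 0.05 (56.9%), with a median log2 fold change of 0.30. Alas2, a target of GATA1, had a log2 fold change of -0.00, and Slc4a1, the anion exchanger of the red cell membrane, had 40.4 and 93.2 FPKM in the Ctrl libraries and 101 and 61.9 in the Nar libraries and one of 0.37. Kel, a blood group protein of the red cell membrane, had 1.56 and 3.35 FPKM in the Ctrl libraries and 4.79 and 3.67 in the Nar libraries, with a log2 fold change of 0.84 (limma adjusted p = 0.155). Epor, the erythropoietin receptor, had 0.42 and 1.43 FPKM in the Ctrl libraries and 0.38 and 0.20 in the Nar libraries, with a log2 fold change of -1.23 (limma adjusted p = 0.0962), and Trim58 had one of -0.25. The median of the list was 0.85 without Ctrl 3 and 1.44 after median-of-ratios scaling, where 0 of the 17 passed in limma and 14 had an unadjusted p under 0.05, against 14.9% of all tested genes.

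All 18 platelet genes were tested, 0 passed in limma (39.6% of all tested genes as lower) and 1 had an unadjusted p under 0.05 (56.9%), with a median log2 fold change of -0.95. Pf4, platelet factor 4, had 233 and 846 FPKM in the Ctrl libraries and 150 and 161 in the Nar libraries, with a log2 fold change of -1.51 (SE 0.61, limma adjusted p = 0.0709). Itga2b, the integrin subunit that marks megakaryocytes, had 103 and 272 FPKM in the Ctrl libraries and 91.5 and 66.2 in the Nar libraries, and Gp9, a subunit of the von Willebrand factor receptor, had 118 and 432 FPKM in the Ctrl libraries and 99.4 and 81.9 in the Nar libraries. In all 3 genes Ctrl 3 was far above the other libraries, as in Gata1 and Nfe2. The log2 fold change was -1.11 for Itga2b, -1.32 for Gp9, -1.34 for Clec1b, -0.70 for Vwf and -0.38 for Selp. The median of the list was -0.33 without Ctrl 3 and 0.21 after median-of-ratios scaling.

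Of 15 genes known as targets of FOXO factors 13 were tested, and 4 fell (Cdkn1b and Ulk1, and Cited2 and Bcl6, named after their values were seen) and 0 rose, with a median log2 fold change of -0.70. Beside the 39.6% of all tested genes called lower, this count is no result about FOXO targets. Cdkn1b, an inhibitor of the cell cycle, had 4.86 and 3.96 FPKM in the Ctrl libraries and 1.38 and 1.13 in the Nar libraries, with a log2 fold change of -1.73 (limma adjusted p = 0.0174). Ulk1, a kinase of autophagy, had one of -1.67 (limma adjusted p = 0.0138). The antioxidant genes Cat and Sod2 had log2 fold changes of 0.39 and 0.05 with overlapping groups. After median-of-ratios scaling the median of the list was 0.39 and 0 passed in limma. At an unadjusted limma p under 0.05 there were then 3, beside 14.9% of all tested genes. On deposited FPKM without Ctrl 3 the median of the list was -0.44.

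**Figure D4:**
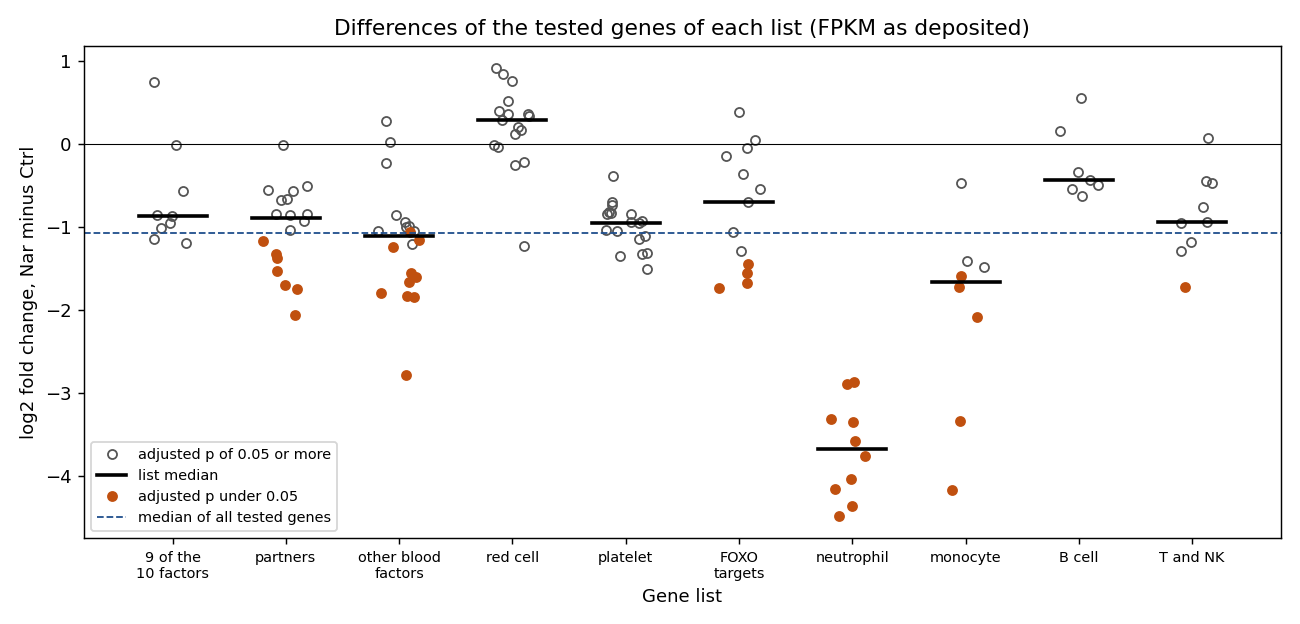
Log2 fold change (Nar minus Ctrl, deposited FPKM) of each tested gene by list, with the list median as a bar and the median of all tested genes as a dashed line. Filled points passed at a limma adjusted p under 0.05, which 0 of the 9 factors, 7 of 18 partners and 10 of 10 neutrophil genes did. For the 17 red cell, 18 platelet and 7 B cell genes the count was 0, and 39.6% of all tested genes passed as lower.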

How the data were processed

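Blood RNA of C57BL/6 mice was sequenced in 2 Ctrl and 2 Nar libraries, grouped by the treatment given per the labels. The authors deposited FPKM per gene. The submitters' processing notes name GRCm38, TopHat2 and Cufflinks, while the study's methods name bowtie-2, so which aligner made this table is uncertain. All 4 value columns were matched, and 0 were left over. Of 23136 genes listed, 5313 were blank, and 5339 with a mean of at least 0.5 FPKM were tested on log2(FPKM + 0.1) with limma 3.58.1 in R 4.3.3 (lmFit, eBayes with a trend) and Benjamini-Hochberg adjustment, called at an adjusted p under 0.05. The test was checked on simulated data with as many genes raised as lowered and no overall shift, unlike these data. The check therefore does not cover this setting. Separate mice are not stated, so p-values measure the spread between these libraries, which may be technical.

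Loci and exon overlaps are from GENCODE M21 (GRCm38). Fragment worth was estimated from FPKM steps of genes with 1 annotated transcript of 500 to 1500 bases. Members and lists were chosen with earlier results of these data known. Named were all 10 members, the 2 highest and 2 lowest tested genes by log2 fold change of each other list except haemoglobin, 5 known targets (Alas2, Slc4a1, Itga2b, Gp9 and Pf4), and the 3 genes nearest in pattern to Gata1, Klf1 and Nfe2, of which Klf1 was not tested. Of the genes this rule names, 2 are not reported here. Alternatives covered pseudocount, filter, scaling, trend, replicate block and each library left out. Ahsp and Ighm had no value.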

Additional observations from a re-analysis of the deposited data

How the results depend on the processing

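Of 120 comparisons of a single tested factor with an alternative, 105 kept their direction and side of the threshold and 11 changed direction. Part of this was fixed in advance. Settings that changed only the filter, the trend or a replicate block kept each log2 fold change, so direction could not change there. Where limma called 0 genes in all, as without a filter, an uncalled factor had to keep its side. Median-of-ratios scaling turned the median log2 fold change of the factors to 0.22, with Gata1 at 0.00 (0.00014), Tal1 at 0.12, Zfpm1 at 1.12, Ldb1 at 0.17, Gfi1b at 0.22, Klf3 at 0.29 and Foxo3 at 0.56, and left 32 tested genes called lower. By construction it sets the typical gene level. With haemoglobin genes removed, 267 were called lower, the factors' median was -0.34 and Zfpm1 stood at 0.53. A mean of at least 5 FPKM left 116 lower (10.7% of 1083 tested) and 1 higher, and the cause was not tested. Without a filter limma called 0 lower and 0 higher, with 4978 genes at an unadjusted p under 0.05. TPM rescaling left 6 higher and limma without the trend 4 higher, and the cause was not tested.

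Leaving out 1 library gave 0 to 254 genes lower, 0 to 5 higher and a median of the factors from -0.96 (without Ctrl 1) to -0.38 (without Ctrl 3), the lone library being assumed to vary like the other group. Limma called 0 genes without Ctrl 1 and 0 without Ctrl 3, with 2682 and 2133 at an unadjusted p under 0.05. Zfpm1 ran from -0.28 without Ctrl 1 to 0.26 without Ctrl 3 and 0.26 without Nar 3, and Gfi1b from -1.73 without Ctrl 1 to 0.00 (0.00066) without Ctrl 3.

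The labels do not say that libraries with the same number belong together. Deviations from the group mean correlated at -0.153 between same-numbered libraries over 5339 genes. With 2 libraries per group this cannot show whether they were paired. With the replicate block, 0 factors were called, beside 1802 genes lower and 13 higher. With the numbers crossed, an alternative added after the data were seen, 4 of 9 factors (44.4%) were called lower, beside 3211 genes lower (60.1%) and 22 higher. By the estimated fragments, depth limits Klf1 most, at about 1.0 to 7.1.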

Other observations

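All 10 neutrophil genes fell with Nar at a limma adjusted p under 0.05, beside 39.6% of all tested genes, with a median log2 fold change of -3.67. The antimicrobial granule genes Ngp and Camp had the lowest values, -4.49 and -4.36, and Cxcr2 and Mmp9 the highest, -2.90 and -2.87. Of 8 monocyte genes 5 fell, with a median of -1.66, from Ly6c2 at -4.17 and Adgre1 at -3.34 to Csf1r at -1.41 and Cx3cr1 at -0.47. Of 7 tested B cell genes 0 passed in limma and 0 had an unadjusted p under 0.05, beside 56.9% of all tested genes. Their median was -0.43, from Cd22 at -0.63 to Cd79b at 0.16 and Ms4a1 at 0.55. Of 9 tested T and NK cell genes 1 fell, Gzma at -1.72, with Ncr1 at -1.29, Cd4 at -0.44, Cd3e at 0.07 and a median of -0.94. After median-of-ratios scaling 4 neutrophil genes and 1 monocyte gene were called lower, beside 0.599% of all tested genes. Without Ctrl 3 the median of the 10 neutrophil genes was -3.80 on deposited FPKM.

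The Krüppel-like family was looked at after the values of Klf1 and Klf3 were seen. In the order Ctrl 1, Ctrl 3, Nar 1 and Nar 3, Klf2, a factor of resting lymphocytes and endothelium, was the most abundant at 9.13, 15.03, 5.63 and 5.63 FPKM. Klf6 had 3.84, 3.54, 1.05 and 0.88 FPKM and Klf13 had 3.91, 3.37, 1.02 and 0.86 FPKM, so that in all 3 genes both Nar libraries lay below both controls, as for Klf3 and for 78.3% of all tested genes. Klf1 was far below these 4 members in each library, but it was not the only low member. In the same order, Klf5 had 0.15, 0.18, 0.07 and 0.02 FPKM and Klf16 had 0.16, 0.19, 0.07 and 0.26 FPKM. Klf4 and Klf7 lay above Klf1 in each library.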
